A study of Mus musculus with 20 samples.

Results

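Swiss 8 and Swiss 9 are a pair of preadipose clones, lines of mouse fibroblasts that can turn into fat cells, each grown from a single cell of the immortalized embryonic strain Swiss 3T3. They were compared here across all measured genes, with 3 arrays of Swiss 8 set against 3 arrays of Swiss 9, or 6 of the 20 arrays of the series. The pair was chosen as the most alike of the preadipose clones, with earlier results of these data known, so their likeness is given as a description. The series was built to compare 4 preadipose clones (these and the clones named Swiss 2 and Swiss 19) with 3 non-adipogenic ones (Swiss 3, Swiss 5 and Swiss 22). Both groups used here were proliferating cells, collected before growth arrest from DMEM with bovine serum, a medium without inducers of fat cell formation, and neither carried a transgene or a deletion that the labels name. Each group is a single clone, and the labels do not say that its arrays came from separate cultures. The p-values therefore measure only the spread between arrays of a clone, pooled over all clones of the series. This spread may be technical.

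A preadipocyte is a fibroblast that is committed to the fat lineage but still divides and makes matrix. On hormonal induction it leaves the cell cycle, and a cascade that starts with the transcription factors C/EBPβ and C/EBPδ switches on PPARγ and C/EBPα, which in turn activate the genes of fat storage. The clones compared here come from the same 3T3 strain and were kept in the same medium, with no treatment involved. Whether a difference between them reflects lineage, culture or array handling was not tested, because each group holds only its own clone.

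The 6 arrays were of similar quality. Mean deposited intensity was 37.4 to 44.9 in Swiss 8 and 37.8 to 52.5 in Swiss 9, against 25.6 to 156.7 over the other lines, and the hybridization spikes averaged 557 to 612 in Swiss 8 and 571 to 647 in Swiss 9. After scaling each array to a trimmed mean of 500, here called scaled intensity, the background, taken as the 95th percentile of 27 unspiked bacterial controls, was 89.8 to 108 in Swiss 8 and 67.5 to 109 in Swiss 9, and 54.2% to 63.5% of probe sets exceeded it on the 6 arrays. The 3′ to 5′ ratio of the Gapdh control probe sets, a sign of RNA integrity, was 0.793 to 0.811 on the Swiss 8 arrays and 0.824 to 0.837 on the Swiss 9 arrays. These ranges did not overlap, and the part of this small difference in the results was not tested. Over genes, arrays correlated at 0.950 to 0.951 within Swiss 8 and 0.961 to 0.966 within Swiss 9, and at 0.934 to 0.941 between the clones.

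The labels call both clones fibroblasts. Of 14 measured fibroblast markers all but Fap were above background on all 6 arrays, and Fap was on 3 Swiss 8 arrays and 2 Swiss 9 arrays. Of these, Col1a2, Thy1 and Prrx1 were lower in Swiss 8 and the other 11 were not called. The share called was 21.4%, against 2.68% of all genes. Markers of muscle, bone, endothelium, leukocytes, epithelium and the nervous system gave no call, and of the cartilage list only Col2a1 was called. Above background on all 3 arrays of a clone were 5 of 17 endothelial, 7 of 16 leukocyte and 3 of 15 epithelial markers, and 4, 3 and 2 were below it on all 6 arrays. For muscle, bone and the nervous system the numbers above background were 3 of 16, 3 of 9 and 6 of 15. Below it on all 6 arrays were 5, 0 and 3 of these markers. Zfp423, a zinc finger factor of preadipocyte commitment, was also below background on all 6 arrays, at 27.4, 9.09 and 37.4 in Swiss 8 and 48.9, 57.8 and 17.6 in Swiss 9. Xist, the transcript of the inactive X chromosome, had a scaled intensity of 206, 170 and 211 in Swiss 8 and 280, 202 and 166 in Swiss 9, and none of the 7 sex-linked transcripts was called. The other 6, Eif2s3y, Kdm5d, Uty, Zfy2, Usp9y and Sry of the Y chromosome, were not above background on all 3 arrays of either clone. Col1a2 and Prrx1 lost their calls when the probe sets of a gene were averaged (log2 -0.44 and -0.21, adjusted p = 0.318 and 0.542).

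Across 18193 genes, 171 were higher in Swiss 8 than in Swiss 9 (0.94%) and 316 were lower (1.74%), by limma with 1 term per line on all 20 arrays and Benjamini-Hochberg adjustment at 0.05. A gene past this threshold is said here to be called. Together the 487 called genes were 2.68% of those tested, and their median absolute log2 difference was 0.74. A ratio of clone means of at least 2-fold was reached by 48 called genes that were higher in Swiss 8 (0.264%) and 79 that were lower (0.434%). All 487 had their 3 Swiss 8 arrays entirely above or entirely below the 3 Swiss 9 arrays, which was true of 20.6% of all tested genes (10.4% with Swiss 8 above and 10.2% with it below). Of the called genes 35.1% were higher in Swiss 8, a share that fell to 16.2% (91 higher, 472 lower) when arrays were centred on their medians instead of quantile-normalized. When the fit used only the 6 arrays of the pair, no gene was called by limma, with 2076 at an unadjusted p under 0.05 and the lowest adjusted p at 0.0598. With an intensity trend and robust estimation added, the same 6 arrays gave 253 higher and 407 lower. In the fit on all 20 arrays, 4.09% of the 11444 genes above background on all 3 arrays of either clone were called. The counts of the gene lists below are to be set beside this share and that of all genes.

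The calls rested on few arrays. Without 1 of the 6 arrays the number of genes called higher in Swiss 8 was 92 to 135 and the number called lower 166 to 317, and 187 of the 487 genes, 57 higher and 130 lower, were called in all 6 of these fits. A count moved by more than 1.5 times without Swiss 8 array 2 (92 higher, 209 lower), Swiss 9 array 1 (106 and 194), Swiss 9 array 2 (95 and 178) and Swiss 9 array 3 (92 and 166). Where a gene named below did not keep its call in all 6, the number of fits in which it was called is given. Of the 99 called genes named by rule, 63 were called when all probe sets of a gene were averaged in place of its brightest, and the losses are given beside the genes. With median centring 91 were called, and the 8 that were not were Tgfbr2, Hoxd8, Hoxd9, Ccna2, Racgap1, Mvd, Cox5a and Akap12.

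**Figure D1:**
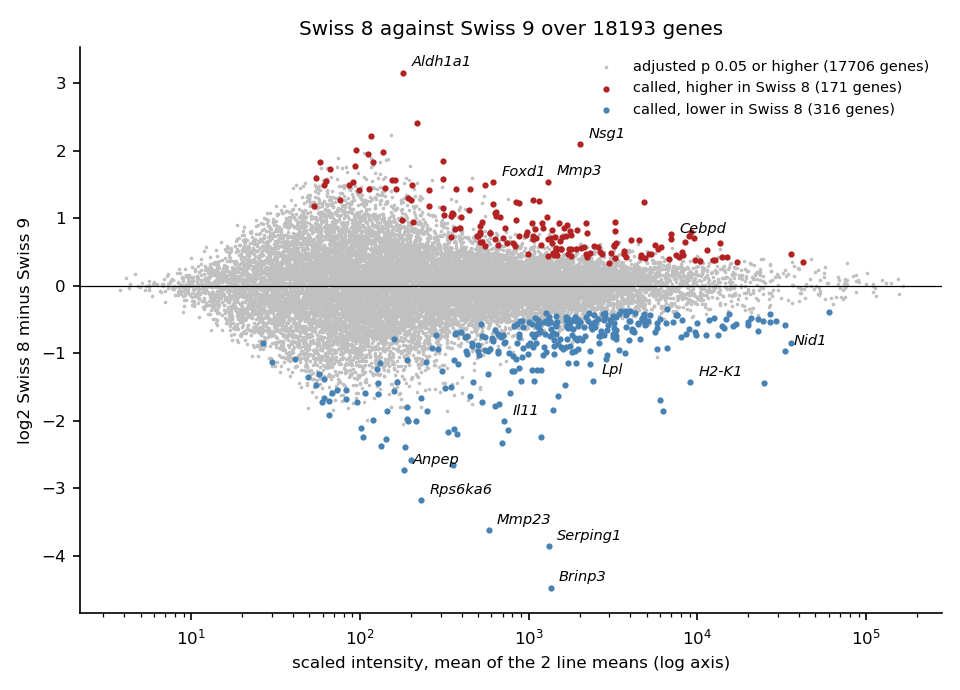
Log2 difference Swiss 8 minus Swiss 9 of 18193 genes against the mean scaled intensity of the clones (log axis). The 171 genes called higher in Swiss 8 are red and the 316 called lower are blue; the grey genes did not pass, and the farthest points are Aldh1a1 above and Brinp3, Serping1 and Mmp23 below.

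Among the 4 preadipose clones no pair differed by fewer genes. Swiss 8 and Swiss 9 had a correlation of 0.965 over genes above background in either, and a root mean square log2 difference of 0.46. In the same fit 6.04% of genes were called between Swiss 2 and Swiss 8, 9.82% between Swiss 2 and Swiss 9, and 6.53% between Swiss 9 and Swiss 19. Over all 7 lines, however, the non-adipogenic Swiss 5 and Swiss 22 were closer, with 0.308% called and a correlation of 0.978. Swiss 2 lay nearer to Swiss 8 than to Swiss 9 in 74.9% of the 171 higher genes and in 64.9% of the 316 lower genes. Of the higher genes Swiss 8 lay outside the range of the other 5 lines in 67 and Swiss 9 in 105, and of the lower genes Swiss 8 did in 157 and Swiss 9 in 112. Among the 48 genes higher by at least 2-fold it was Swiss 8 in 18 and Swiss 9 in 38.

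The gene with the largest log2 difference toward Swiss 8 was Aldh1a1, retinaldehyde dehydrogenase 1, which makes retinoic acid. Its scaled intensity was 428, 273 and 350 in Swiss 8, against 8.15, 6.20 and 13.7 in Swiss 9, where it was not above background on any array. The difference was at least 4.06-fold (log2 3.16 ± 0.25 SE, limma adjusted p = 7.42e-06). The means of the other lines were 110 for Swiss 2, 471 for Swiss 3, 1613 for Swiss 5, 2485 for Swiss 22 and 1675 for Swiss 19. All 5 were above the Swiss 9 mean, and all but that of Swiss 2 were above the Swiss 8 mean of 350.2. Its neighbour in the family, Aldh1a7, had 401, 427 and 494 in Swiss 8 and 236, 192 and 139 in Swiss 9, a 2.33-fold difference that was called in 5 of the 6 fits with an array left out and not without Swiss 9 array 3 (adjusted p = 0.0709). The 2 genes have very similar sequences and lie on chromosome 19, so a probe set of one may take up signal of the other. Stra6, the cell-surface receptor that takes up retinol from its binding protein, had 137, 189 and 302 in Swiss 8 and was below background in Swiss 9, at 35.3, 20.7 and 29.3. It was at least 2.42-fold higher (adjusted p = 0.0493), and was called in none of the 6 fits with an array left out (highest adjusted p = 0.148). These 3 were the called members among 23 measured genes of the aryl hydrocarbon receptor and retinoid list, and none was lower. Under averaged probe sets Stra6 did not pass (log2 1.83, adjusted p = 0.0648).

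Nsg1, a small membrane protein of endosomes, had 2824, 3178 and 3910 in Swiss 8 and 622, 905 and 677 in Swiss 9, a 4.50-fold difference (limma adjusted p = 6.38e-06). Foxd1, a forkhead transcription factor of stromal progenitors, had 801, 975 and 1049 against 361, 269 and 243 in Swiss 9, which was 3.24-fold higher. For both, every Swiss 8 array lay well above every Swiss 9 array. Mmp3, described with the proteases below, was bright in both clones as well, and the other genes named by rule for their excess in Swiss 8 were dimmer. Cln3, a lysosomal membrane protein, Spata6, Prrt1, Lrrc75a and Plac8l1 had mean scaled intensities of 195, 260, 491, 477 and 245 in Swiss 8 and 27.1, 61.8, 127, 146 and 62.9 in Swiss 9. Gja4, the gap junction protein connexin 37, had 189, 195 and 136 in Swiss 8 and was below background in Swiss 9, at 19.0, 10.3 and 17.6. Of these dim genes Cln3 and Spata6 were called in 5 of the 6 fits with an array left out, Prrt1 in 3, Lrrc75a and Plac8l1 in 2, Gja4 in 1 and Tmem204 in 0, with highest adjusted p from 0.0517 for Cln3 to 0.147 for Tmem204. Averaging the probe sets of each gene ended the call of Spata6, Prrt1 and Tmem204 (log2 0.53, 0.74 and 0.59, adjusted p = 0.331, 0.331 and 0.275). Nsg1 stayed called at log2 1.38.

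The largest differences of all ran the other way. Brinp3, a secreted protein known from neurons that restrains the cell cycle, had 10.98, 161 and 163 in Swiss 8 and 2605, 2507 and 2631 in Swiss 9, so it was at least 18.7-fold lower in Swiss 8 (log2 -4.47 ± 0.41 SE, limma adjusted p = 2.28e-05). Serping1, the inhibitor of complement protease C1, had 156, 195 and 85.4 against 2140, 2679 and 2617 in Swiss 9, at least 16.4-fold lower (adjusted p = 1.56e-06). Mmp23, a membrane metalloproteinase, had 90.6, 54.6 and 34.7 against 1057, 1006 and 1234 in Swiss 9, at least 10.9-fold lower. All 3 were bright on every Swiss 9 array and at or near background in Swiss 8, and all kept their calls in the 6 fits with an array left out.

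Rps6ka6, a ribosomal S6 kinase encoded on the X chromosome, was below background on all Swiss 8 arrays at 16.5, 45.5 and 5.34, against 334, 523 and 456 in Swiss 9. Gpx7, a glutathione peroxidase of the endoplasmic reticulum, had 24.7, 155 and 80.1 against 638, 473 and 757 in Swiss 9. Prkar1b, a regulatory subunit of protein kinase A, had 170, 159 and 323 against 1146, 1316 and 1052 in Swiss 9, 5.39-fold lower. Rgs4, which shuts off G protein signals, had 242, 430 and 526 against 1831, 1948 and 2140 in Swiss 9, 4.94-fold lower. The remaining genes of the 12 with the largest deficit were Anpep, Heph, Flywch2, Col2a1 and Rtl8c. Each was below background on all Swiss 8 arrays, with clone means of 24.6, 42.7, 37.9, 21.5 and 29.3, and above it on all Swiss 9 arrays, with means of 342, 357, 331, 243 and 256. Heph, a copper-containing ferroxidase, and Col2a1, the collagen of cartilage, were called in 3 of the 6 fits with an array left out (highest adjusted p 0.0796 and 0.0757). The summed scaled intensity of the 16 measured cartilage markers was 1987 to 2365 in Swiss 8 and 2713 to 3435 in Swiss 9, with 7 of 16 above background. Among them Sox9, the regulator of cartilage formation, averaged 910 in Swiss 8 and 1432 in Swiss 9 and was not called. The log2 difference of Rps6ka6 with probe sets averaged was -1.76, against -3.17 on its brightest one.

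**Figure D2:**
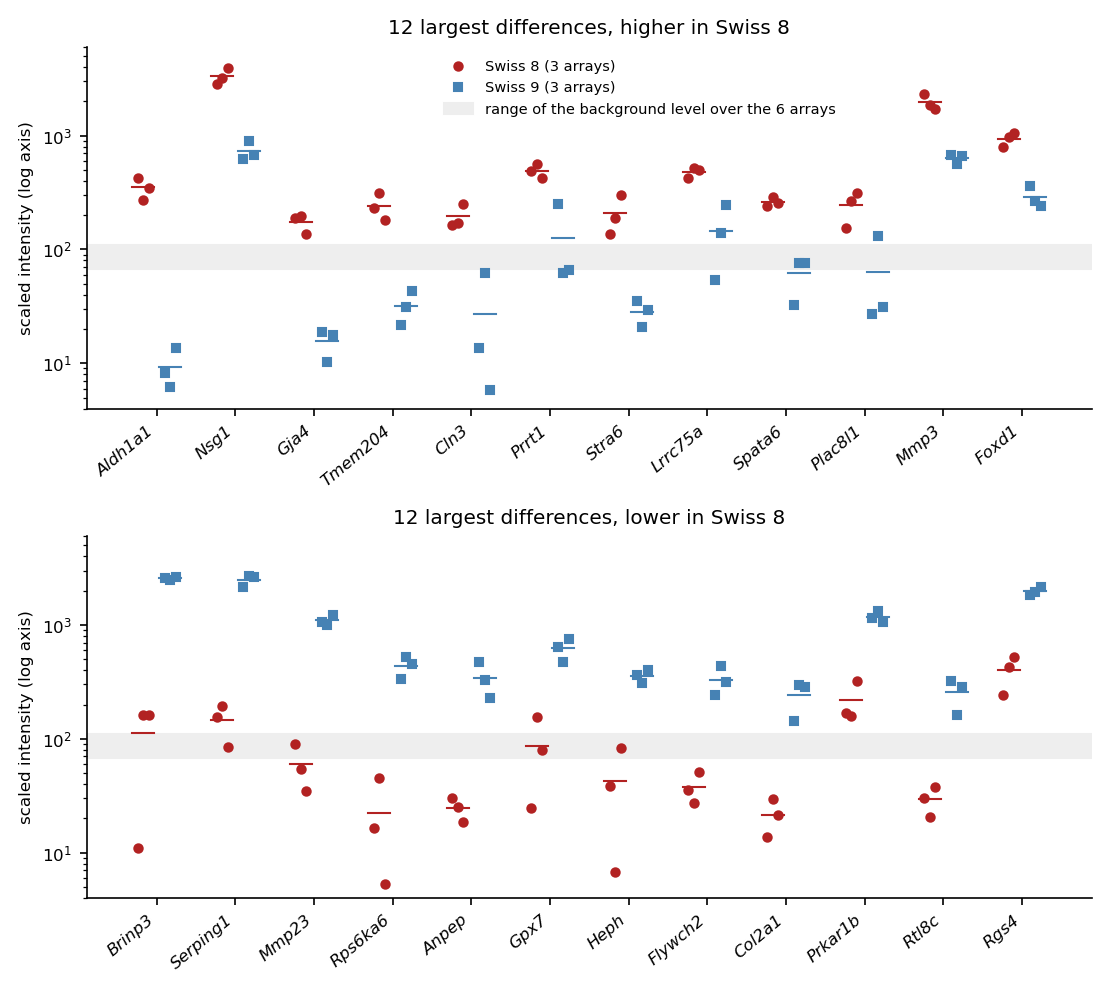
Scaled intensity (log axis) on each array of the 12 named genes farthest apart each way, with Swiss 8 as red circles and Swiss 9 as blue squares, a bar at each clone's mean and a grey band for the background of 67.5 to 109 over the 6 arrays. Brinp3, Serping1 and Mmp23 were at 1006 or higher on every Swiss 9 array and stayed below 200 in Swiss 8, whereas most genes higher in Swiss 8 were under 600.

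Interferon-responsive and antigen presentation genes were on balance lower in Swiss 8. Interferons act on the promoters of antiviral genes through a complex that includes Stat2 and Irf9, and they raise the class I molecules that display peptides together with the immunoproteasome subunits that cut them. Of 36 measured members 9 were lower and 1 was higher, where 1.74% and 0.94% of all genes were, and the median log2 difference was -0.47, against 0.00403 over all genes. Without 1 array 8 or 9 were lower, and with probe sets of a gene averaged 7 were.

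H2-K1, a class I heavy chain, had 4441, 4749 and 4895 in Swiss 8 and 12560, 14076 and 13594 in Swiss 9. The ranges were far apart, and it was 2.86-fold lower (log2 -1.42 ± 0.095 SE, limma adjusted p = 1.56e-06), with all 4 of its probe sets lower. H2-D1, a second heavy chain of nearly the same sequence, had 3110, 3398 and 2957 against 5900, 4763 and 5024 in Swiss 9. It was called lower on its brightest probe set, and 6 of its 9 probe sets had that sign, so the class I genes cannot be fully separated. Psmb8 and Psmb10, which encode immunoproteasome subunits, were both lower. Psmb8 had 35.7, 271 and 112 against 600, 506 and 638 in Swiss 9, with 1 of its 2 probe sets in that direction. Psmb10 had 1553, 1316 and 1423 against 2469, 2483 and 2598 in Swiss 9. With probe sets averaged, H2-D1 and Psmb8 were no longer called (log2 -0.10 and -0.77, adjusted p = 0.847 and 0.303).

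Irf9, the DNA-binding subunit of the interferon complex, had 115, 200 and 214 in Swiss 8 and 388, 401 and 511 in Swiss 9, 2.46-fold lower (limma adjusted p = 0.00292). Its partner Stat2 did not pass (log2 -0.16, adjusted p = 0.886). Of the interferon-induced genes, Ifit3 had 258, 373 and 328 against 565, 615 and 636 in Swiss 9, and Ifi35 and Ifi202b were 1.92-fold and 1.86-fold lower. Oasl2 had 30.2, 81.8 and 77.4 in Swiss 8, below background, against 269, 357 and 329 in Swiss 9, and was called in none of the fits with an array left out (highest adjusted p = 0.128). Ifit2, a neighbour of Ifit3 on chromosome 19 and a gene of the same family, went the other way, with 958, 966 and 843 in Swiss 8 and 576, 533 and 604 in Swiss 9, 1.62-fold higher. The median of the list was -0.50 once each gene was taken relative to the median of its chromosome. Of the 16 measured leukocyte markers none was called, with summed scaled intensities of 2882 to 3659 in Swiss 8 and 3265 to 3695 in Swiss 9.

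**Figure D3:**
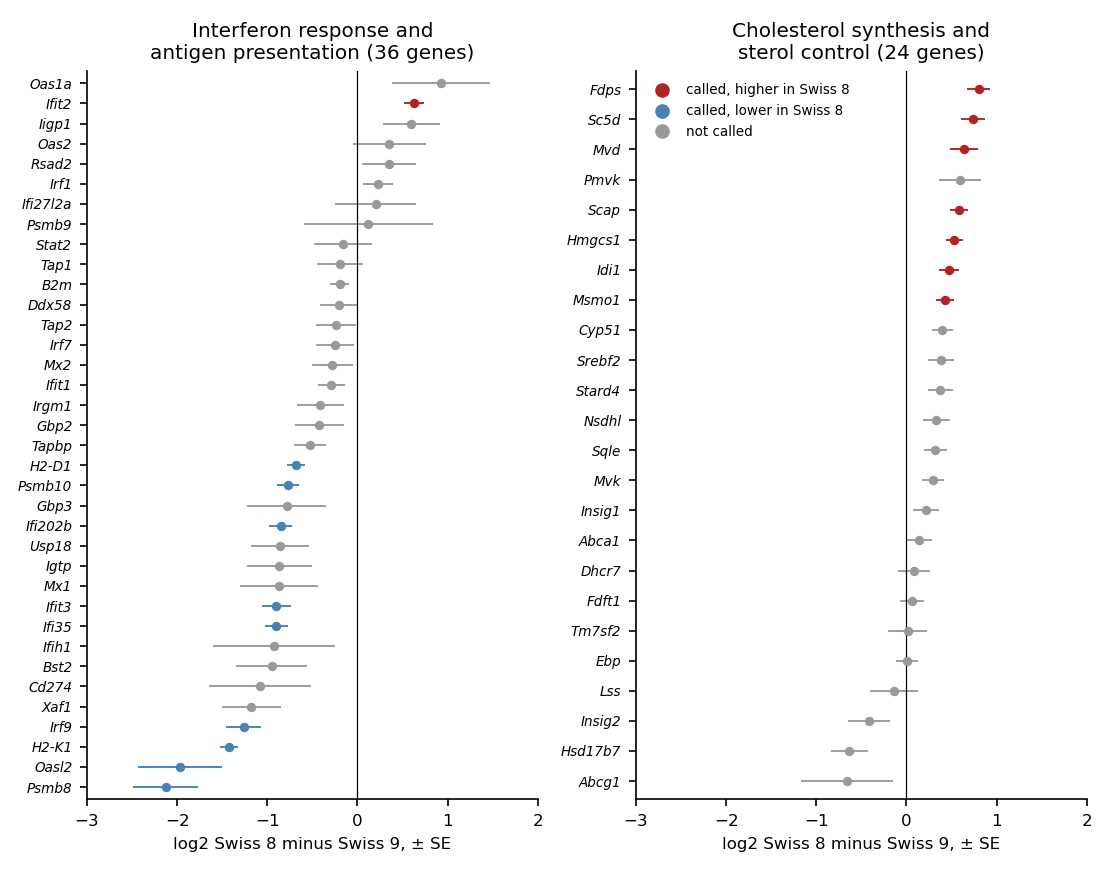
Log2 difference Swiss 8 minus Swiss 9 with its standard error for the 36 interferon and antigen presentation genes and the 24 genes of cholesterol synthesis and sterol control. On the left 9 called genes lie below 0 and Ifit2 above it, and on the right the 7 called genes all lie between 0.42 and 0.80.

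The listed chemokines and cytokines followed the same direction where they were called. Of 41 measured chemokines and cytokines 6 were lower in Swiss 8 and 0 higher, or 14.6%, against 2.68% of all genes. The median log2 difference was -0.18. Ccl2 and Ccl7, which attract monocytes, are neighbours on chromosome 11. Ccl2 had 19592, 19949 and 19315 in Swiss 8 and 28385, 29182 and 30895 in Swiss 9 (1.50-fold lower, limma adjusted p = 0.00356), and Ccl7 was 1.50-fold lower as well. Il11, a cytokine of the IL-6 family, had 269, 307 and 224 against 1103, 1303 and 1086 in Swiss 9, 4.36-fold lower in these arrays, yet was called in none of the fits with an array left out (highest adjusted p = 0.0772). Cxcl10, Ccl8 and Cxcl5 were called in 2, 4 and 3 of those fits. Over the fits with an array left out the highest adjusted p was 0.0996, 0.0604 and 0.0765 for Cxcl10, Ccl8 and Cxcl5. Of the list, 3 genes were lower without Swiss 8 array 1 and 2 without Swiss 9 array 2 or array 3.

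Genes of cholesterol synthesis were called only toward Swiss 8. The pathway builds cholesterol from acetyl-CoA through mevalonate and isoprenoid steps, and its genes are switched on together by the factor SREBP2 when membrane sterol is low. Of 24 measured members 7 were higher in Swiss 8 and 0 lower, or 29.2%, against 2.68% of all genes. A positive difference was found in 20 of the 24, and the median was 0.33. Hmgcs1, which makes the precursor of mevalonate, had 12494, 12832 and 14575 in Swiss 8 and 9442, 9028 and 9660 in Swiss 9, 1.42-fold higher (log2 0.53 ± 0.095 SE, limma adjusted p = 0.00693), with all 5 of its probe sets in that direction. Fdps, farnesyl diphosphate synthase, had 10295, 11666 and 12383 against 7030, 6202 and 7017 in Swiss 9, 1.70-fold higher on its brightest probe set, whereas its other probe set had the opposite sign. Sc5d, a desaturase of the last steps, had 1397, 1202 and 1414 against 771, 731 and 843 in Swiss 9, 1.71-fold higher. Scap, which escorts SREBP2 to its activation, had 3752, 4062 and 3760 against 2662, 2479 and 2582 in Swiss 9, 1.50-fold higher. Averaging the probe sets of each gene ended the call of Hmgcs1, Fdps, Sc5d and Scap (log2 0.48, 0.19, 0.34 and 0.30, adjusted p = 0.197, 0.764, 0.278 and 0.782).

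These 4 kept their calls in all 6 fits with an array left out. Mvd, Idi1 and Msmo1 had smaller or less even differences, log2 0.64, 0.48 and 0.42, and were called in 1, 0 and 0 of those fits. With an array left out the adjusted p reached 0.139, 0.135 and 0.113 for Mvd, Idi1 and Msmo1. The count of the list was 5 without Swiss 8 array 1 and 4 without any other single array, 2 with arrays centred on their medians and 1 with probe sets averaged, while its median stayed between 0.20 and 0.37. Srebf2 itself (log2 0.39, adjusted p = 0.195) and Sqle (log2 0.32, adjusted p = 0.224) did not pass. Under averaged probe sets Mvd and Msmo1 did not pass (log2 0.60 and 0.20, adjusted p = 0.0625 and 0.840).

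The genes of the amino acid and unfolded protein responses run through the transcription factor ATF4, which raises enzymes of asparagine and one-carbon metabolism. Of 35 measured members 5 were lower in Swiss 8 and 0 higher, or 14.3%, against 2.68% of all genes. The median was -0.24, and 5 were lower without Swiss 8 array 3 and 3 without any other single array. Asns, asparagine synthetase, had 6453, 6867 and 6814 in Swiss 8 and 11061, 10945 and 11106 in Swiss 9, 1.64-fold lower (limma adjusted p = 0.00628). Aldh1l2 and Mthfd2, enzymes of the mitochondrial folate pathway, were 1.96-fold and 1.73-fold lower. Herpud1 and Slc7a1 were called in 0 and 1 of the fits with an array left out. The highest adjusted p with an array left out was 0.135 and 0.167 for Herpud1 and Slc7a1. Herpud1 and Slc7a1 lost their calls when the probe sets of a gene were averaged (log2 -0.62 and -0.12, adjusted p = 0.177 and 0.847).

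Promoter sequences were read for the interferon, sterol and ATF4 lists, each of which has a known regulatory element and had calls mostly or entirely in one direction. The RefSeq table of the GRCm38.p6 assembly holds 250 bases before and 50 after each gene's start, and it matched 29, 19 and 31 of the members. Each list was searched on both strands for the core of the element its pathway acts on: a pair of GAAA runs with 2 bases of any kind between them for the interferon complex, TCACNCCAC for SREBP and TGATGNAA for ATF4 with C/EBP partners. The printed promoters are those of 1 called gene of each list with a match, with the matching letters in capitals; the Ifit3 matches are on the reverse strand.

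Ifit3, chr19:34583279-34583578, plus strand: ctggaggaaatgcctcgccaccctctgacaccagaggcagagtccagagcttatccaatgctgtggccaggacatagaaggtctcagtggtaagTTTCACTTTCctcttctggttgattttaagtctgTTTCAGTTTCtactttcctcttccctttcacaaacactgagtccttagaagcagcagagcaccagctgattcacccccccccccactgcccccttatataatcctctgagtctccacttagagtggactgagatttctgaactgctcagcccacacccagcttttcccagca
Hmgcs1, chr13:119690101-119690400, plus strand: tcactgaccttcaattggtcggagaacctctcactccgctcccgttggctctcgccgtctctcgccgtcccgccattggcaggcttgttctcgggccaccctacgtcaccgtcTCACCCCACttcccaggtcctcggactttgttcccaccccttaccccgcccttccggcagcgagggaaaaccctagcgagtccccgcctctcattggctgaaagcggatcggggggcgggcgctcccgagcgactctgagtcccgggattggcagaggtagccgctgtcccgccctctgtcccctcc
Asns, chr6:7693160-7693459, minus strand: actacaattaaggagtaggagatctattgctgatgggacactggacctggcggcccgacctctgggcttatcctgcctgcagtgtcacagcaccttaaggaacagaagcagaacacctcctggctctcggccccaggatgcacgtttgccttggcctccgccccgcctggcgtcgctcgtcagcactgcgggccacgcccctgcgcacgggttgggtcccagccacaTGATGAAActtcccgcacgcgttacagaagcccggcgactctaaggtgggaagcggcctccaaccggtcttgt

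The interferon letters were in 13 of the 29 members, against 3.993% of 27025 promoters, but in only 1 of the 10 called members, Ifit3, where they occur in a pair 156 and 122 bases before the start. The sterol letters were in 1 of 19 members, Hmgcs1, which was also the only one of 6 called members to hold them, against 1.436% of promoters. The ATF4 letters were in 7 of 31 members and in 2 of the 4 called ones, Asns and Herpud1, against 4.511% of promoters. The called genes of the interferon list were thus mostly ones without the letters in this window.

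Of 30 measured adipogenic regulators 1 was higher and 1 was lower in Swiss 8, or 6.67%, against 2.68% of all genes, and 7 had an unadjusted p under 0.05. Cebpd, the early C/EBPδ, had 7946, 8974 and 8839 in Swiss 8 and 4699, 5302 and 6029 in Swiss 9, 1.61-fold higher (log2 0.70 ± 0.10 SE, limma adjusted p = 0.00198). Klf5, which cooperates with it, had 1150, 868 and 790 against 1698, 1448 and 1553 in Swiss 9, 1.67-fold lower, and was called in 1 of the fits with an array left out (highest adjusted p = 0.134). Pparg, the master regulator, had 521, 516 and 451 against 856, 599 and 636 in Swiss 9. These Pparg arrays did not overlap, but the difference did not pass (log2 -0.46, adjusted p = 0.337). Cebpb differed by -0.13 and Cebpa by 0.28 on the log2 scale, and neither passed. Averaging the probe sets of each gene ended the call of Cebpd and Klf5 (log2 0.45 and -0.26, adjusted p = 0.162 and 0.755).

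Of the genes of mature fat cells, Lpl, the lipase that frees fatty acids from lipoproteins, had 1018, 1157 and 1727 in Swiss 8 and 3002, 3712 and 3856 in Swiss 9, 2.71-fold lower (log2 -1.40 ± 0.25 SE, limma adjusted p = 0.00636). Acly, which supplies acetyl-CoA for lipid synthesis, was 1.42-fold lower and was called in 2 of the fits with an array left out. The other 26 of the 28 measured members were not called, so 7.14% were, against 2.68% of all genes. The genes that restrain adipogenesis gave 2 lower of 29, or 6.90%. Tgfb1, transforming growth factor β1, had 242, 346 and 427 against 606, 779 and 622 in Swiss 9, 1.98-fold lower, and Id3, an inhibitor of helix-loop-helix factors, was 1.51-fold lower. Dlk1, which blocks differentiation, had 24691, 27298 and 28624 against 23029, 21695 and 20973 in Swiss 9 and did not pass (adjusted p = 0.106). Another list holds genes chosen earlier on these samples for separating preadipose from non-adipogenic lines. Of its 20 genes 2 were called here (10%), Lpl lower and Akap12 1.48-fold higher. With an array left out the adjusted p reached 0.0878 for Acly. Under averaged probe sets Acly and Tgfb1 did not pass (log2 -0.03 and -0.71, adjusted p = 0.969 and 0.395).

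Of 21 surface proteins used to sort mesenchymal progenitors 4 were lower in Swiss 8 and 0 higher, or 19.0%, against 2.68% of all genes. These 4 calls held in every fit with an array left out. Anpep, the aminopeptidase CD13, had 30.19, 25.005 and 18.68 in Swiss 8, below background, and 470, 328 and 227 in Swiss 9, at least 3.41-fold lower (limma adjusted p = 0.000284). Cd34 had 1290, 1207 and 1110 against 2507, 2156 and 2273 in Swiss 9, 1.92-fold lower. Cd44, the hyaluronan receptor, and Thy1, the surface protein CD90, were 1.55-fold and 1.53-fold lower. Pdgfra, which marks fat progenitors, had 3313, 3983 and 5220 against 3993, 5488 and 5746 in Swiss 9, with overlapping arrays (adjusted p = 0.525). Cd44 was no longer called with probe sets averaged (log2 -0.49, adjusted p = 0.167).

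Extracellular proteases differed in both directions. Of 37 measured proteases and inhibitors 3 were higher and 7 lower in Swiss 8, or 27.0%, against 2.68% of all genes. The lower ones included Serping1 and Mmp23. Mmp3, stromelysin 1, had 2325, 1844 and 1719 in Swiss 8 and 676, 568 and 661 in Swiss 9, 3.09-fold higher (limma adjusted p = 1.70e-05). The aggrecanase Adamts5 had 1641, 1484 and 1409 against 519, 719 and 563 in Swiss 9, 2.52-fold higher. The gelatinase Mmp9, in contrast, had 532, 396 and 811 against 1646, 1824 and 1266 in Swiss 9, 2.72-fold lower. Timp1, an inhibitor of metalloproteinases, had 16163, 15676 and 14900 against 26068, 23308 and 24228 in Swiss 9, 1.57-fold lower.

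Among the matrix proteins that these enzymes act on, Nid1, the basement membrane protein nidogen 1, had 20184, 21293 and 23932 in Swiss 8 and 43499, 45256 and 44703 in Swiss 9, 2.04-fold lower (limma adjusted p = 5.60e-05), with 2 of its 3 probe sets in that direction. Ogn, the proteoglycan osteoglycin, was 1.87-fold higher. In all, 2 of 50 matrix glycoproteins and proteoglycans were higher and 5 lower, and of 24 collagen chains 0 were higher and 3 lower. These were 14% and 12.5% of the lists, against 2.68% of all genes. Postn, periostin, was 1.91-fold lower and called in 2 of the fits with an array left out. Pcdh7, a protocadherin, was 1.87-fold lower and called in 4 of those fits. It was the only called gene of 30 adhesion genes (3.33%), a share near that of all genes. Besides Col2a1 the lower collagens were Col16a1, 2.05-fold lower and called in 5 of the fits with an array left out, and Col1a2, 1.34-fold lower and called in 1. Of the contractile genes Myl9, a myosin light chain of smooth muscle, had 2048, 2016 and 1532 against 4175, 3441 and 4218 in Swiss 9, 2.11-fold lower, and Actg2 was 3.39-fold lower but called in 1 of those fits. These were the only called genes of 23 in the contractile list, or 8.70%. Over the fits with an array left out the highest adjusted p was 0.0993, 0.0603, 0.0593, 0.144 and 0.0819 for Postn, Pcdh7, Col16a1, Col1a2 and Actg2. Nid1, Pcdh7 and Col1a2 lost their calls when the probe sets of a gene were averaged (log2 -0.46, -0.47 and -0.44, adjusted p = 0.272, 0.285 and 0.318).

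Receptors and modulators of growth factors also split. Of 18 measured PDGF and VEGF ligands and receptors 1 was higher and 2 were lower, or 16.7%, against 2.68% of all genes. The neuropilins, co-receptors for semaphorins and VEGF, were called in opposite directions on their brightest probe sets. Nrp1 had 1337, 1339 and 963 in Swiss 8 and 421, 537 and 477 in Swiss 9, 2.54-fold higher (limma adjusted p = 0.00532), and Nrp2 had 513, 527 and 478 against 1225, 1374 and 1152 in Swiss 9, 2.47-fold lower (adjusted p = 0.000485). Neither pair of ranges overlapped. For each gene 3 of 4 probe sets had its direction. Nrp1 was no longer called with probe sets averaged (log2 0.31, adjusted p = 0.536). Vegfc, a ligand of the VEGF receptors, was 1.78-fold lower and was called in 3 of the fits with an array left out. With an array left out the adjusted p reached 0.0765 for Vegfc.

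In the BMP pathway 1 of 31 was higher and 3 were lower, or 12.9%, against 2.68% of all genes. Fst, follistatin, which traps activins and some BMPs, had 8091, 8999 and 8997 in Swiss 8 and 4963, 5244 and 5256 in Swiss 9, 1.69-fold higher. The BMP antagonist Grem1 had 11379, 9936 and 7724 against 15067, 18455 and 16435 in Swiss 9, 1.72-fold lower, and lost its call without Swiss 9 array 2 (limma adjusted p = 0.0706). The ligand Gdf10 had 159, 334 and 395 against 1301, 996 and 822 in Swiss 9, 3.51-fold lower. In the Wnt list 2 of 45 were higher and 1 was lower, or 6.67%. The co-receptor Lrp5 was at least 2.93-fold higher, at 423, 261 and 203 against 81.5, 112 and 72.4 in Swiss 9, and the secreted antagonist Sfrp2 had 425, 618 and 755 against 1309, 1772 and 1379 in Swiss 9, 2.48-fold lower. Rspo3, which strengthens Wnt signals, was at least 1.84-fold higher but was called in none of the fits with an array left out. The highest adjusted p with an array left out was 0.178 for Rspo3. Averaging the probe sets of each gene ended the call of Rspo3 (log2 0.71, adjusted p = 0.302).

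Of 30 measured lysophospholipid, prostaglandin and purine signalling genes 3 were lower and 0 higher, or 10%, against 2.68% of all genes. The median was -0.077. Lpar1, a receptor for lysophosphatidic acid, had 1350, 1209 and 939 in Swiss 8 and 2746, 2881 and 2344 in Swiss 9, 2.28-fold lower (limma adjusted p = 0.000624). Plpp3, the phosphatase that degrades the ligand, had 3423, 3739 and 4350 against 6747, 8049 and 8357 in Swiss 9, 2.01-fold lower. Ptgis, prostacyclin synthase, was the third. Of 34 genes of the FGF and IGF pathways 2 were lower, or 5.88%. Igfbp7, which binds insulin-like growth factors, had 23892, 24853 and 26574 against 45946, 47026 and 47891 in Swiss 9, 1.87-fold lower, and Igf2r, the receptor that clears IGF2, was 1.54-fold lower and called in 1 of the fits with an array left out. With an array left out the adjusted p reached 0.123 for Igf2r. Under averaged probe sets Igfbp7 and Igf2r did not pass (log2 -0.57 and -0.38, adjusted p = 0.103 and 0.435). Lpar1 stayed called at log2 -0.67.

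Of 20 TGF-β pathway genes 2 were higher and 2 lower, or 20%, against 2.68% of all genes. Besides Tgfb1, Ltbp2, a matrix protein that binds to microfibrils, had 2182, 1937 and 2762 in Swiss 8 and 4131, 3926 and 3887 in Swiss 9, 1.74-fold lower (limma adjusted p = 0.00912). The receptor Tgfbr2 was 1.37-fold higher on its brightest probe set, but it was called in none of the fits with an array left out, and its log2 difference turned to -0.34 with its 3 probe sets averaged. Hhip, a decoy receptor for Hedgehog, was at least 2.47-fold higher and called in 1 of those fits. It was the only called gene of 27 in the Notch and Hedgehog list, or 3.70%. Ntn1, the guidance cue netrin 1, had 1301, 1414 and 1417 against 2711, 2540 and 2170 in Swiss 9, 1.80-fold lower. It was the only called gene of 41 axon guidance genes, or 2.44%. The shares of the axon guidance list and of the Notch and Hedgehog list were near that of all genes. Over the fits with an array left out the highest adjusted p was 0.173 and 0.160 for Tgfbr2 and Hhip. With probe sets averaged, Tgfb1, Hhip and Ntn1 were no longer called (log2 -0.71, 0.34 and -0.69, adjusted p = 0.395, 0.689 and 0.267).

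Genes of cell division leaned toward Swiss 8 without many passing the test. Of 33 mitosis genes 31 had a positive difference, with a median of 0.27, and 2 were called, both higher: Ccna2, cyclin A2, at 6977, 7345 and 5791 in Swiss 8 and 4944, 4052 and 4353 in Swiss 9 (1.51-fold), and Racgap1 (1.40-fold). They were called in 2 and 1 of the fits with an array left out, the list keeping 2 calls without Swiss 8 array 3, 1 without Swiss 9 array 1 and 0 without any other array. With arrays centred on their medians neither the mitosis list nor its 2 genes gave a call, at a list median of 0.14. All 38 measured genes of DNA replication were above background, 31 were positive with a median of 0.19, and none was called by limma, with 6 at an unadjusted p under 0.05. Egr1, a serum-induced immediate early factor, had 1230, 1230 and 1289 in Swiss 8 and 579, 432 and 489 in Swiss 9, 2.50-fold higher (adjusted p = 0.000174). Mdm2, a target and inhibitor of p53, and Gadd45a, a p53 target, were 1.49-fold and 1.60-fold lower, and were called in 2 and 1 of the fits with an array left out. Gas2, raised at growth arrest, was 1.86-fold lower, and Txnip, an inhibitor of thioredoxin, was 1.78-fold lower and called in 1 of those fits. The immediate early and quiescence list had 2 higher and 3 lower of 34, or 14.7%, against 2.68% of all genes. In the mitosis list the share was 6.06%. Of 21 CDK inhibitors and p53 targets only Mdm2 and Gadd45a were called, or 9.52%. Of 18 circadian clock genes none was called by limma, with 4 at an unadjusted p under 0.05. With an array left out the adjusted p reached 0.105, 0.158, 0.0734, 0.117 and 0.116 for Ccna2, Racgap1, Mdm2, Gadd45a and Txnip. Ccna2, Racgap1, Mdm2 and Gas2 lost their calls when the probe sets of a gene were averaged (log2 0.33, 0.24, -0.68 and -0.62, adjusted p = 0.199, 0.563, 0.0974 and 0.346).

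Imprinted genes, expressed from one parental copy, gave 2 higher and 3 lower of 25, or 20%, against 2.68% of all genes. Peg3, expressed from the paternal copy, had 1153, 1794 and 2271 in Swiss 8 and 636, 919 and 890 in Swiss 9, 2.13-fold higher and called in 4 of the fits with an array left out. Meg3, a noncoding RNA of the maternal copy at the Dlk1 locus, had 1372, 907 and 2063 against 3363, 3020 and 3165 in Swiss 9, 2.20-fold lower (limma adjusted p = 0.00992), with 10 of its 11 probe sets in that direction. Plagl1, a paternally expressed zinc finger factor, was at least 1.88-fold lower, with 1 of its 3 probe sets in that direction, and called in 1 of those fits. Of 33 HOX genes only the neighbours Hoxd8 and Hoxd9 were called (6.06%). They were 1.46-fold and 1.77-fold higher and were called in 2 and 1 of those fits. Prrx1, a limb mesenchyme factor, had 5627, 5419 and 6248 against 9360, 10932 and 10503 in Swiss 9, 1.78-fold lower. The highest adjusted p with an array left out was 0.0634, 0.130, 0.0904 and 0.161 for Peg3, Plagl1, Hoxd8 and Hoxd9. Averaging the probe sets of each gene ended the call of Plagl1, Hoxd9 and Prrx1 (log2 -0.18, 0.78 and -0.21, adjusted p = 0.902, 0.0592 and 0.542). Peg3 and Meg3 stayed called at log2 0.60 and -0.70.

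Enzymes of redox defence were lower where the difference was large. Besides Gpx7, Sod3, the secreted superoxide dismutase, had 1699, 1684 and 2015 in Swiss 8 and 3602, 4203 and 4100 in Swiss 9, 2.21-fold lower (limma adjusted p = 0.000322). Nqo1, a target of NRF2, had 1685, 2009 and 2090 against 3363, 3185 and 3351 in Swiss 9, 1.71-fold lower. The NRF2 and glutathione list had 1 higher and 3 lower of 35, or 11.4%, against 2.68% of all genes. Acot1, a cytosolic thioesterase that releases fatty acids from CoA, had 324, 291 and 326 against 945, 808 and 726 in Swiss 9, 2.64-fold lower. It was the only called gene of 27 of fatty acid oxidation and peroxisomes (3.70%), a share near that of all genes. In glycolysis and glucose use 2 of 28 were lower, Pfkp, a phosphofructokinase, 2.08-fold and Bnip3 1.60-fold, called in 3 and 1 of the fits with an array left out. Of 36 respiratory chain subunits only Cox5a was called, 1.31-fold higher, and in none of those fits. Of 18 complement genes only Serping1 was called. The shares called in the glycolysis, respiratory chain and complement lists were 7.14%, 2.78% and 5.56%. With an array left out the adjusted p reached 0.0706, 0.145 and 0.0980 for Pfkp, Bnip3 and Cox5a. Under averaged probe sets Pfkp, Bnip3 and Cox5a did not pass (log2 -0.66, -0.67 and 0.29, adjusted p = 0.265, 0.0614 and 0.338).

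The difference between the clones was not spread evenly over the genome. Among 11390 genes above background in either clone on chromosomes 1 to 19 and X, placed by the GRCm38.p6 gene table, chromosomes 1, 4, 6, 11 and 14 had the lowest medians and held 28.7% of the genes. They held 52.1% of the 305 called genes that were lower in Swiss 8 and 10.5% of the 162 that were higher. Of the 78 genes called lower by at least 2-fold they held 39.7%. Among genes above background 2.67% were called lower and 1.42% higher, or 4.09% in all. These chromosomes were picked by the same differences, so an excess of lower calls on them follows in part from the choice. Relative to all genes the median log2 difference was -0.21 on chromosome 14, -0.16 on chromosomes 1, 6 and 11 and -0.097 on chromosome 4. It was 0.15 on chromosome 16, 0.11 on chromosome 19 and 0.10 on chromosome 9, and within 0.01 of 0 on chromosomes 8 and 17.

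The shifts were small beside those of single genes but were alike on every array. On chromosome 14 the array medians of the deviation from the mean of the 6 arrays were -0.093, -0.092 and -0.11 in Swiss 8 and 0.095, 0.085 and 0.11 in Swiss 9. On chromosome 16 they were 0.064, 0.091 and 0.091 in Swiss 8 and -0.055, -0.086 and -0.090 in Swiss 9. The 3 Swiss 8 arrays lay entirely to one side of the 3 Swiss 9 arrays on 18 of the 20 chromosomes, and the standard deviation between arrays of a clone was at most 0.030. With 3 arrays against 3 the smallest two-sided p of an exact permutation test is 0.10, so these medians are given without a test. Among the alternatives tried none turned the sign of a median that was over 0.02 in size, and that of chromosome 14 stayed between -0.21 and -0.15.

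**Figure D4:**
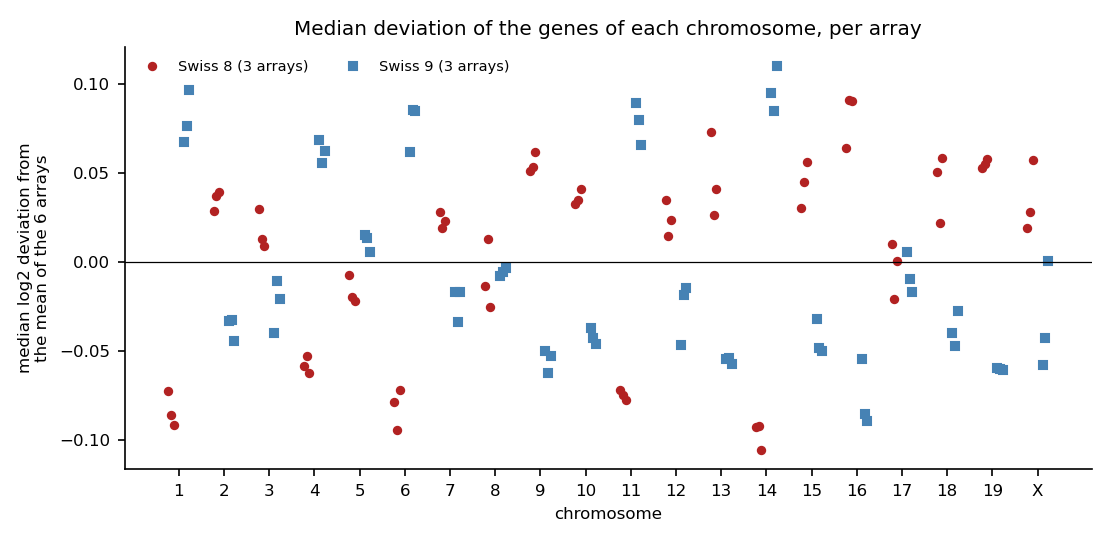
Median log2 deviation from the mean of the 6 arrays of the genes above background on each chromosome, with Swiss 8 arrays as red circles left of the Swiss 9 arrays as blue squares. The Swiss 8 arrays lie below the Swiss 9 arrays on chromosomes 1, 4, 5, 6, 11 and 14, overlap with them on 8 and 17, and lie above them on the others.

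On the 3 chromosomes with the median farthest from that of all genes, the lower genes with the largest differences included Gdf10 of chromosome 14, described above, and Dhrs4 of the same chromosome, a peroxisomal reductase, which had 497, 350 and 544 in Swiss 8 and 1192, 938 and 1393 in Swiss 9, 2.53-fold lower. On chromosome 6 Gstk1, a mitochondrial and peroxisomal glutathione transferase, had 178, 13.6 and 203 against 589, 444 and 563 in Swiss 9, at least 3.26-fold lower and called in 4 of the fits with an array left out. On chromosome 11 Cnp, a phosphodiesterase best known from myelin, had 280, 95.5 and 165 against 511, 551 and 475 in Swiss 9, at least 2.78-fold lower, and Vstm2a was 3.13-fold lower but called in 1 of those fits. Thsd7a of chromosome 6 and Dlx4 of chromosome 11 were below background in Swiss 8 on at least 2 arrays, at least 3.08-fold and 2.06-fold lower, and each was called in 1 of those fits. Over the fits with an array left out the highest adjusted p was 0.0715, 0.0750, 0.0663 and 0.156 for Gstk1, Vstm2a, Thsd7a and Dlx4. With probe sets averaged, Thsd7a and Dlx4 were no longer called (log2 -1.23 and -1.23, adjusted p = 0.0946 and 0.101).

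Taken in chromosome order, 25 genes at a time, some of these shifts had edges. The block size and the limit of 0.15 used below were chosen after seeing the data. Of 446 blocks, 80 had a median log2 difference under -0.15 and 50 one over 0.15. The longest run was on chromosome 4, where 12 consecutive blocks of 300 genes, from Klhl9 to Ubxn10, all lay between -0.43 and -0.18. In this stretch 239 of the 300 genes, or 79.7%, were lower in Swiss 8, 32 were called lower and 2 higher, and the median was -0.30. In the other 377 genes of the chromosome 44.6% were lower, 6 were called lower and 4 higher, and the median was 0.058. The stretch was bounded by these same differences, so its contrast with the rest of the chromosome follows in part from the choice. The block just before the stretch, from Trim32 to Hacd4, had a median of 0.16, and the block just after it, from Pla2g2c to Szrd1, one of 0.038.

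On each array the stretch was on the same side. Its median deviation was -0.11, -0.13 and -0.17 in Swiss 8 and 0.18, 0.17 and 0.19 in Swiss 9, and its median relative to all genes was -0.32 without quantile normalization and -0.25 with probe sets averaged. Measured from the mean of the 7 lines it was -0.16 in Swiss 8 and 0.16 in Swiss 9, and Swiss 2, at -0.26, was on the side of Swiss 8. The other lines had -0.020 (Swiss 3), 0.064 (Swiss 5), 0.092 (Swiss 22) and 0.15 (Swiss 19). The stretch holds Gpx7, Plpp3, Col16a1 and Id3 among the genes described above, all lower in Swiss 8, and Spata6 and Gja4, which were higher.

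Chromosome 8 had a median near 0 but held a lower stretch. Its first 15 blocks had medians from -0.087 to 0.12, the following 6, from Mt3 to Crispld2, had -0.30 to -0.11, and the block after these, from Zdhhc7 to Aprt, had 0.18. The lower stretch holds Herpud1, Nqo1 and Psmb10. On chromosome 1 the first pair of blocks had medians of 0.014 and 0.0054 and each of the other 24 blocks a negative one, down to -0.33. On chromosome 5 the runs were short: 3 blocks from Smim20 to Ambn, which include Pdgfra, had -0.30, -0.26 and -0.17. On chromosomes 6, 14 and 11 the medians were negative in 22 of 22, 15 of 15 and 37 of 38 blocks, and on chromosome 16 they were positive in 14 of 15.

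**Figure D5:**
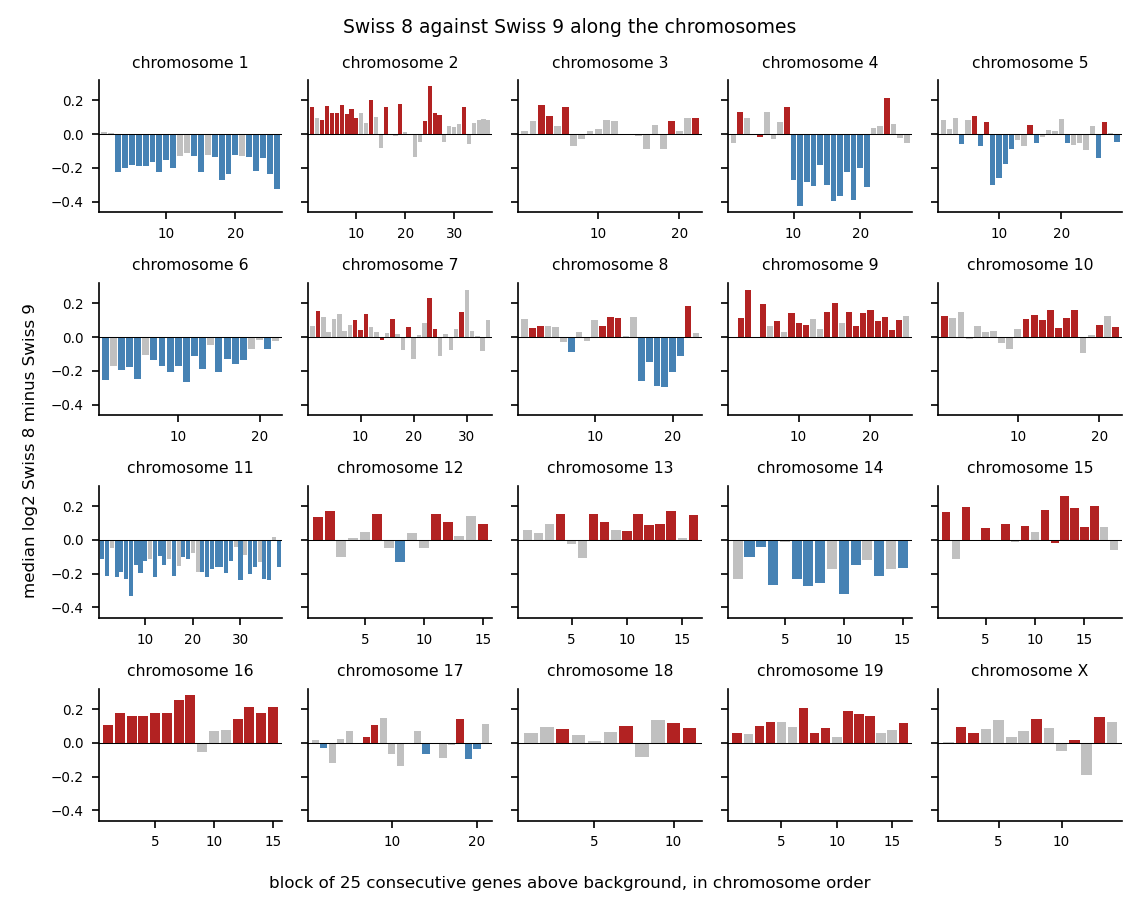
Median log2 difference Swiss 8 minus Swiss 9 of consecutive blocks of 25 genes above background along each chromosome. Red blocks have all 3 Swiss 8 arrays above the Swiss 9 arrays, blue blocks have them below, and grey blocks overlap; chromosome 4 shows a run of 12 blue blocks between -0.43 and -0.18, flanked by blocks at 0.16 and 0.038.

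Groups of called neighbours pointed the same way as their chromosome. The medians of the chromosomes come from these same differences, so this follows in part from them. How many such groups the density of calls alone would give was not tested. At 5 places 3 called genes stood close together, and all were lower in Swiss 8: Gng11, Bet1 and Col1a2 on chromosome 6, Ccl2, Ccl7 and Ccl8 on chromosome 11, Pck2, Psme1 and Irf9 on chromosome 14, Kdm5b, Ppp1r12b and Ptprv on chromosome 1, and Eif4g3, Hp1bp3 and Ddost on chromosome 4. With probe sets averaged Gng11, Bet1, Col1a2, Kdm5b, Ppp1r12b, Ptprv, Eif4g3 and Hp1bp3 were not called, and Ppp1r12b had the opposite sign (log2 0.23). Of the lists above, the interferon genes had 9 of 36 members on the 5 chromosomes with the lowest medians, the chemokines 16 of 41 and the sterol genes 4 of 24. Taken relative to the median of each gene's chromosome, the median of the chemokines was -0.17, that of the sterol genes 0.29, that of the ATF4 genes -0.24 and that of the mitosis genes 0.22, close to the medians without this step.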

How the data were processed

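RNA of 7 Swiss 3T3 clones was measured on 20 arrays, a 3′ oligonucleotide design of 45101 probe sets. The deposited values are linear intensities per probe set, with no common scale; the summarization is not given in the sources used here. Each array was scaled to a trimmed mean of 500 (2% cut at each end), log2(scaled value + 32) was quantile-normalized over all arrays, and the brightest probe set with 1 gene symbol stood for each gene. Of 45037 probe sets other than controls, 34945 had 1 symbol, 932 several and 9160 none. The pseudocount makes log2 differences of dim genes too small. Swiss 8 was compared with Swiss 9 by limma 3.58.1 (R 4.3.3, lmFit and eBayes) with 1 term per line on all 20 arrays and Benjamini-Hochberg adjustment over 18193 genes. A fold is the ratio of mean scaled intensities, the higher over the lower, and is "at least" where the lower clone was not above background on all 3 arrays. The number of arrays limits the precision.

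Genes were named by rule: the 12 largest called differences each way, up to 3 called genes of each list, the sex-linked transcripts and the leading genes of the 3 most shifted chromosomes. For the 12, the arrays of the clones had to be fully apart, with the higher clone above background on all 3 arrays. Clone and predicted gene names were passed over. Some larger called differences, such as Steap4 (log2 2.41), did not meet these conditions. Others were named after their values were seen. The clones, the gene lists and the blocks of genes were chosen with earlier results of these data known. The alternatives tried were other pseudocounts, normalizations, filters, probe set rules, variance models, samples in the fit and a replicate block. The scripts were tested on simulated data. No scan date or slide was given in the sources used here, so batches were not tested.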

Additional observations from a re-analysis of the deposited data

How the results depend on the processing

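The counts of genes higher and lower in Swiss 8 (171 and 316) changed with the processing. They were 375 and 564 with the pseudocount added before scaling, 369 and 541 among genes above background only, and 442 and 595 with an intensity trend and robust estimation. They were 84 and 191 with probe sets averaged, 16 and 24 with 9 arrays of Swiss 2, Swiss 8 and Swiss 9, and 0 and 0 with 6 arrays only, where limma had 4 residual degrees of freedom in place of 13 and 2076 genes had an unadjusted p under 0.05. Median centring gave 91 higher and moved the median log2 difference of all genes to -0.077. Of the counts of at least 2-fold (48 higher and 79 lower), 27 were higher with probe sets averaged, 12 and 23 passed with 9 arrays, and 0 and 0 with 6 arrays. Leaving out 1 array gave 92 to 135 higher and 166 to 317 lower, and by at least 2-fold 27 to 41 higher and 58 to 75 lower. All 487 called genes kept their sign under each gene-level setting that tested them, other than probe sets averaged, where 472 did. There Tgfbr2 was the only gene named by rule to reverse, at -0.34. Without 1 array the sign could not turn, because all 487 had the arrays of the clones apart. Nor could it with 9 arrays, with genes above background only, or with an intensity trend and robust estimation on all 20 arrays. Of the 99 called genes named by rule, 53 kept their call whichever array was left out. With the replicate number as a block, 141 genes were higher and 268 lower. Deviations of arrays with the same number correlated at 0.023, -0.010 and 0.025, and those with unlike numbers at -0.035 to 0.012. Whether the numbers stand for shared cultures or batches was not tested. Fits with line weights, and with 6 arrays under an intensity trend and robust estimation, were chosen after seeing the data and gave 141 and 278, and 253 and 407. The cause of these changes was not tested beyond the samples and genes each setting used. Dim genes are limited by the background, and differences below it could not be measured.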

Other observations

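Some bright genes outside the lists differed strongly, and were named after their values were seen. Ptn, the growth factor pleiotrophin, had a scaled intensity of 9431, 12493 and 17569 in Swiss 8 and 31577, 37828 and 40055 in Swiss 9, 2.77-fold lower (limma adjusted p = 0.000569). Hspb1, a small heat shock protein, had 2599, 2557 and 2989 in Swiss 8 and 8863, 9447 and 9462 in Swiss 9, 3.41-fold lower, with the lowest adjusted p of all genes (7.91e-07). Prkg2, a cGMP-dependent protein kinase, had 2780, 2605 and 2274 in Swiss 8 and 9249, 10331 and 10051 in Swiss 9, 3.87-fold lower. For these 3 genes every Swiss 8 array lay below every Swiss 9 array.

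H2ax, a histone variant that marks DNA breaks when phosphorylated, had 7238, 6979 and 6056 in Swiss 8 and 3056, 2755 and 2772 in Swiss 9, 2.36-fold higher (limma adjusted p = 8.41e-06). Mgp, the matrix Gla protein that inhibits calcification, was 2.52-fold higher, and Inhbb, an activin subunit, had 730, 827 and 963 in Swiss 8 and 236, 246 and 317 in Swiss 9, 3.16-fold higher. Rian, a noncoding RNA of the same imprinted locus as Meg3, had 565, 814 and 1222 in Swiss 8 and 2298, 2679 and 2299 in Swiss 9, 2.80-fold lower. With probe sets averaged, Inhbb and Rian were no longer called (log2 1.21 and -0.53, limma adjusted p = 0.1125 and 0.118). Among 9160 probe sets without a gene symbol, tested together with the named ones, 16 were higher and 14 lower in Swiss 8.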
